A study of Rattus norvegicus with 7 samples.

Results

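Ether lipid and peroxisome genes were followed in the cerebellum of rat pups from dams on 2 diets. The set holds 7 genes, Far1, Gnpat, Agps, Pex5, Pex7, Pex14 and Hsd17b4, out of 15443 genes that could be named on the array. They were chosen by function around Far1, which was itself picked because it was much lower in the deficient group. The contrast between the diets therefore chose this gene, and the values of all 7 genes in it are given as a description, with no test of the set.

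The MDD pups (methyl donor deficiency, n = 3) came from dams on a diet short of folate and vitamin B12 that also held less choline. The CTRL pups (controls, n = 4) came from dams on a standard diet. Both diets began 1 month before pregnancy and lasted to weaning at postnatal day 21, when the cerebellum of these female Wistar pups was taken. Total RNA was hybridised to 1-colour Agilent arrays. Dams and litters are not named in the labels, so errors and p-values here measure only how far single pups differed.

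Ether lipids are phospholipids in which a fatty alcohol is joined to glycerol by an ether bond, and plasmalogens, their main form, are abundant in brain and myelin. Their synthesis starts in the peroxisome. FAR1 reduces fatty acyl-CoA to the alcohol, GNPAT acylates dihydroxyacetone phosphate, and AGPS exchanges that acyl chain for the alcohol. Enzymes reach the peroxisome through import receptors: PEX5 carries most matrix proteins, PEX7 carries a smaller group that includes AGPS, and both dock on PEX14 at the membrane. HSD17B4 is the D-bifunctional enzyme of peroxisomal beta-oxidation, the pathway that shortens very long chain fatty acids. In people, loss of PEX7, GNPAT or AGPS causes rhizomelic chondrodysplasia punctata, a disorder of plasmalogen deficiency.

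The promoters of the 2 genes of the set that passed the threshold described below, one in each direction, are shown because the diet was short of methyl donors and CG pairs are the usual sites of DNA methylation. DNA methylation itself was not measured. The windows run from 250 bases before to 50 after the start site in a RefSeq-derived table of the rat assembly GRCr8, and capitals mark each CG pair. The window of Far1 is chr1:177079080-177079379 on the plus strand, and that of Pex14 is chr5:164819303-164819602 on the minus strand.
Far1: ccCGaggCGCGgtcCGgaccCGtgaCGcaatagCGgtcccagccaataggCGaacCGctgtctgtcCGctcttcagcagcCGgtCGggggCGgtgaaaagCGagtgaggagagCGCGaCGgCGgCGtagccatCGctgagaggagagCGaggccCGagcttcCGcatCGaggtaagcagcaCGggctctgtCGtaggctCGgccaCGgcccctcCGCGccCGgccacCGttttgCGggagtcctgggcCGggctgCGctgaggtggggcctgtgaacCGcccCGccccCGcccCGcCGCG
Pex14: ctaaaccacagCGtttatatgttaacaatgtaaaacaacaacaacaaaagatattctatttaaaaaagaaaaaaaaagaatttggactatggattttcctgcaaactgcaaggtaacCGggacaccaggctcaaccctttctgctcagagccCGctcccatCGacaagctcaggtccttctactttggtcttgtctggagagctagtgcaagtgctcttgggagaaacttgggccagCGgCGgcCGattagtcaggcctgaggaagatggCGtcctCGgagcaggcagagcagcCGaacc
The Far1 window holds 41 CG pairs, a number reached by 2.83% of the 33469 promoters in the table, and the Pex14 window holds 10, reached by 41.5%. The other windows hold 30 pairs for Agps, 29 for Gnpat, 22 for Pex7, 15 for Pex5 and 12 for Hsd17b4, against a median of 7 over the table. The peroxisome proliferator response element was searched as AGGTCA repeated after 1 base, and on the other strand as TGACCT repeated after 1 base. This exact form occurs in 0.0538% of the promoters and in 0 of these 7. A form so rare would seldom be found in 7 windows, so its absence does not set these genes apart. Looser forms and sequence outside the windows were not searched.

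On the arrays, 74.1% to 79.6% of spots were well above background and 0 were saturated, and each array correlated with the mean of the other arrays of its group at 0.988 to 0.995. MDD replicate 2 correlated at 0.9911 with the mean of the other MDD arrays and at 0.9913 with that of the CTRL arrays, while the other 6 arrays lay closer to their own group. Levels are log2 intensities relative to the array's 75th percentile, so that 0 is that percentile and each unit above it is a doubling of signal. Groups were compared with limma across 19991 genes and unnamed probes, and a gene was called when its Benjamini-Hochberg adjusted p was under 0.05. Checked against the cerebellum label, all 12 granule neuron markers and all 8 measured Purkinje cell markers were well above background on all 7 arrays. The number of arrays limits the precision.

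All 7 genes were measured, by 11 probes in 30 spots on each array, and each probe was well above background on all 7 arrays. Of the 7 genes, Far1 was called lower and Pex14 higher in MDD. Over all genes and probes tested 20.4% were called, 7.72% lower and 12.7% higher. The groups did not overlap for 3 of the 7 genes (Far1, Agps and Pex14), and for 36.5% of everything tested (16.4% lower in MDD, 20.1% higher). Far1 lay lower in MDD, Agps and Pex14 lay higher, and the other 4 genes overlapped. In bulk tissue, fewer cells of a type and less RNA per cell cannot be told apart.

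Far1, the fatty acyl-CoA reductase that supplies the alcohol and is regarded as the rate-limiting step of plasmalogen synthesis, had the lowest values relative to control. Its level was -5.55, -3.97 and -4.29 in MDD replicates 1 to 3, against -2.85, -3.42, -3.26 and -3.47 in CTRL replicates 1 to 4. Every MDD array lay below every CTRL array, and MDD replicate 1 lay furthest below. The means were -4.60 ± 0.84 in MDD (SD, n = 3) and -3.25 ± 0.28 in CTRL (SD, n = 4), a log2 change of -1.35 (SE 0.35), or 2.55-fold lower.

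The Far1 probe was dim. Its background-subtracted intensity was 35.7, 100.2 and 58.4 units in the MDD arrays, against 180.5, 197.9, 195.5 and 149.1 units in the CTRL arrays. In the authors' deposited table the same probe had 87.7, 160 and 144 units in the MDD columns, against 258, 204, 228 and 202 units in the CTRL columns. MDD lay below CTRL in both, but by less in the authors' deposited table. There the change was -0.81 on the log2 scale (SE 0.20), and it was -0.77 (SE 0.23) with normexp background correction. Without MDD replicate 1 the change was -0.88 (SE 0.20).

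Whether Far1 passed the threshold also depended on single arrays. It stayed called without MDD replicate 1 or MDD replicate 2, with a change of -1.67 without MDD replicate 2. It was no longer called without MDD replicate 3 (-1.51), CTRL replicate 1 (-1.22), CTRL replicate 2 (-1.41), CTRL replicate 3 (-1.35) or CTRL replicate 4 (-1.42). In all of these the value in MDD remained the lower one. The 3 MDD arrays shared a row of the slide with CTRL replicate 4, and the other 3 CTRL arrays lay in the other row. With the row as a block, the change of Far1 was -1.13 and that of Pex14 0.40, and neither was called. That comparison rests on CTRL replicate 4 as its only control.

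**Figure D1:**
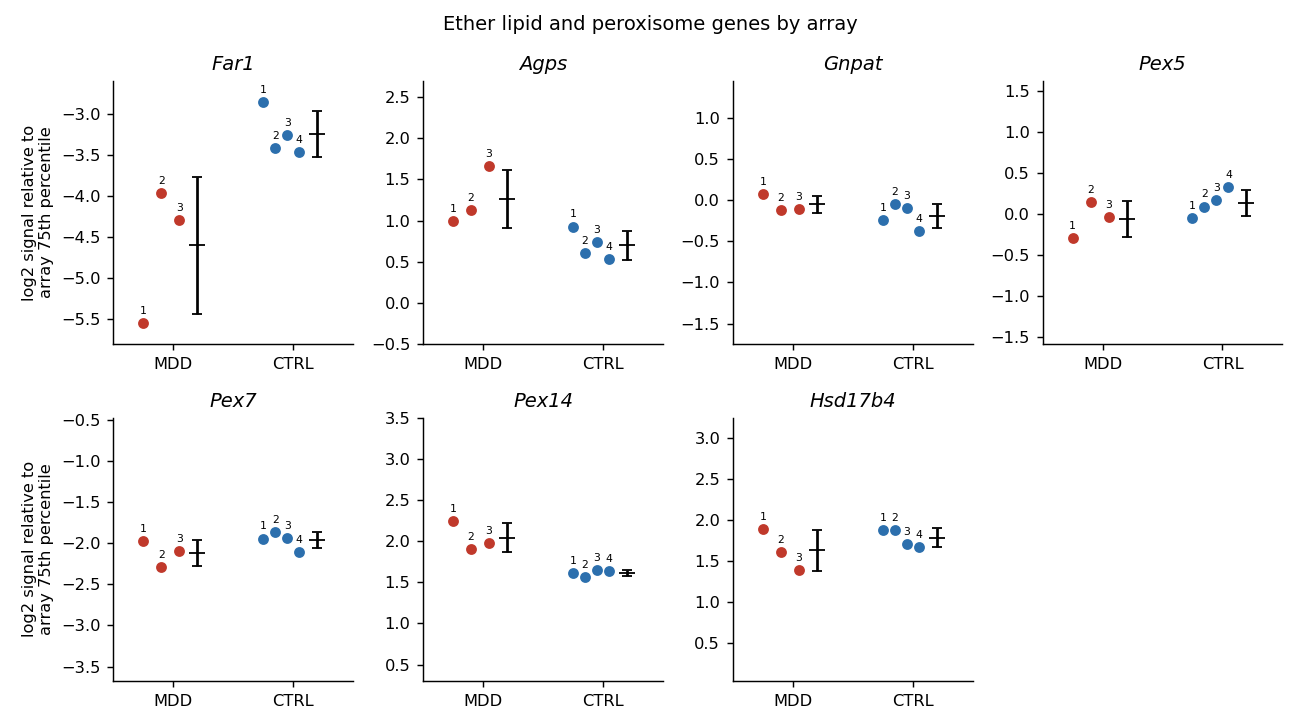
Level of each of the 7 genes by array, as log2 signal relative to the array's 75th percentile. Red points are the 3 MDD arrays and blue points the 4 CTRL arrays, each with its replicate number, and black marks give mean and SD; every panel spans the same number of log2 units. Far1 lay lower in all MDD arrays, Agps and Pex14 lay higher, and the other 4 genes overlapped.

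Gnpat, which makes the acylated partner of the alcohol, stood at 0.07, -0.12 and -0.11 in MDD, against -0.24, -0.05, -0.09 and -0.37 in CTRL. The groups overlapped, and the log2 change was 0.14 (SE 0.13).

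Agps, which makes the ether bond, was read by 3 probes, and they disagreed. The brightest, A_64_P112749, which stands for the gene here, read 0.99, 1.13 and 1.66 in MDD, against 0.93, 0.60, 0.73 and 0.53 in CTRL. All MDD arrays were above all CTRL arrays, by a log2 change of 0.56 (SE 0.18), and the gene was not called. It was called with median scaling (0.61), with normexp (0.56) and among probes above background on all arrays (0.56). Without MDD replicate 3 the change was 0.36 (SE 0.14), and it was not called. Probe A_43_P12780 went the other way, at -3.16, -2.88 and -3.08 in MDD, against -2.32, -2.72, -2.55 and -2.81 in CTRL. Here all MDD arrays were below all CTRL arrays, with a log2 change of -0.44 (SE 0.15). The third probe, A_64_P112759, overlapped between the groups and changed by -0.12 (SE 0.21). Averaged over the 3 probes the change of Agps was 0.0013 (SE 0.17), so these arrays give no single direction for the gene.

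**Figure D2:**
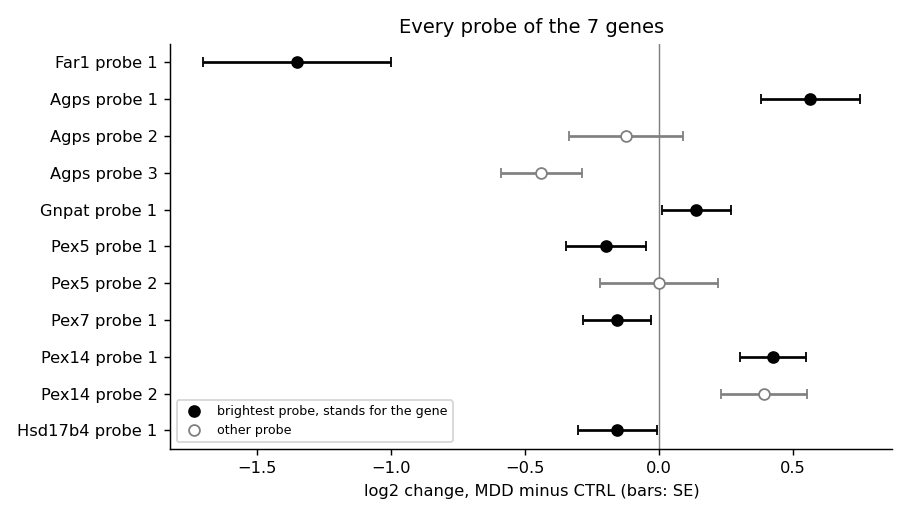
Log2 change, MDD minus CTRL, for each of the 11 probes of the 7 genes, with bars for the SE. Filled points are the brightest probe of each gene and open points the others. Both Pex14 probes lie above 0, the Agps probes lie on both sides of it, and the Far1 probe lies furthest below.

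Of the import receptors, Pex5, which binds the C-terminal targeting signal, stood at -0.30, 0.15 and -0.03 in MDD, against -0.05, 0.09, 0.18 and 0.33 in CTRL. The log2 change was -0.20 (SE 0.15), and its second probe gave 0.00045 (SE 0.22). Pex7, which binds the N-terminal signal found in AGPS, stood at -1.97, -2.29 and -2.10 in MDD, against -1.94, -1.86, -1.94 and -2.11 in CTRL. Its log2 change was -0.16 (SE 0.13). For both receptors the MDD and CTRL arrays overlapped, and neither was called.

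Pex14, the docking protein on which both receptors converge, was higher in MDD. It stood at 2.24, 1.90 and 1.98 in MDD, against 1.61, 1.56, 1.64 and 1.64 in CTRL, where the 4 arrays lay close together. The means were 2.04 ± 0.18 in MDD (SD, n = 3) and 1.61 ± 0.04 in CTRL (SD, n = 4), a log2 change of 0.43 (SE 0.12), or 1.34-fold. Its second, dimmer probe gave -1.92, -2.52 and -2.03 in MDD, against -2.56, -2.47, -2.54 and -2.63 in CTRL. That probe changed by 0.39 (SE 0.16), and MDD replicate 2 lay within the CTRL range. Pex14 was not called with quantile normalization (0.29) or the authors' deposited table (0.30), with the mean of its probes (0.41) or with no filter (0.43). It was also not called without MDD replicate 1 (0.33), MDD replicate 3 (0.46), CTRL replicate 1 (0.43), CTRL replicate 2 (0.41), CTRL replicate 3 (0.44) or CTRL replicate 4 (0.43).

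Hsd17b4 stood at 1.90, 1.61 and 1.39 in MDD, against 1.88, 1.88, 1.71 and 1.67 in CTRL. MDD replicate 1 was the brightest of the 7 arrays and MDD replicate 3 the dimmest, and the log2 change was -0.16 (SE 0.15). The gene was not called.

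**Figure D3:**
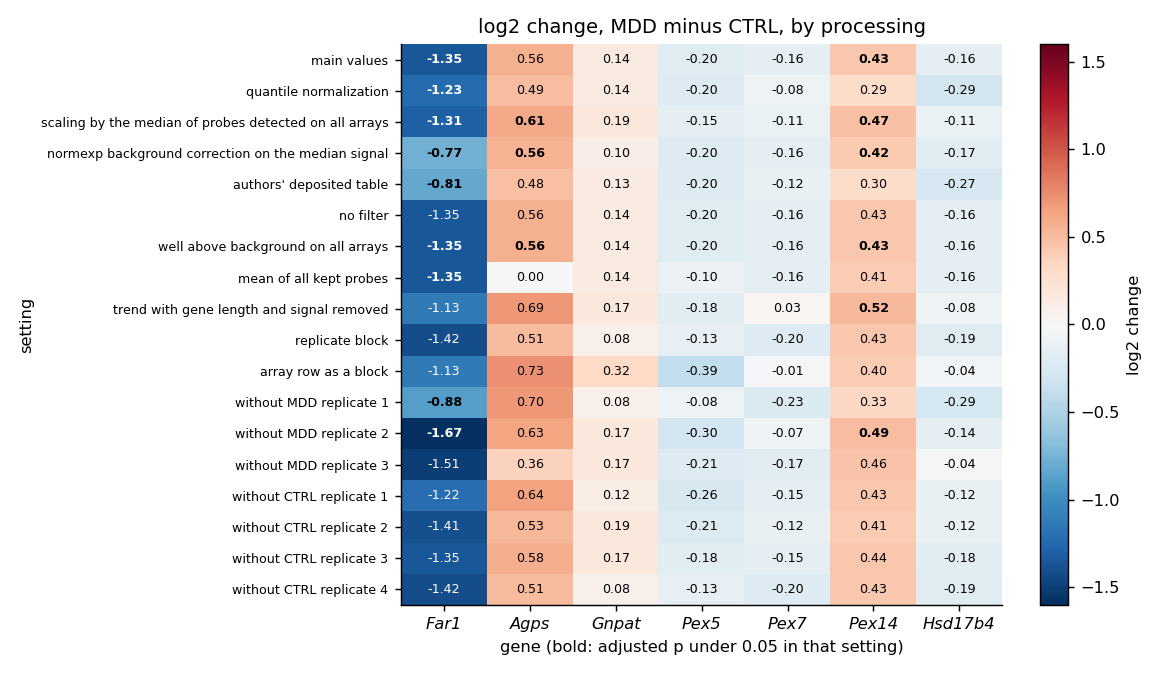
Log2 change, MDD minus CTRL, of the 7 genes (columns) under each way of processing and with each array left out (rows). Colour and number give the change, and bold numbers passed an adjusted p of 0.05 in that setting. Far1 is below 0 and Pex14 above 0 in every row, while Agps is 0.00 in the row that averages its probes.

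The other genes of the pathway were read from lists chosen by function. Outside the 7 genes these lists hold 73 genes, of which 65 were measured. By limma with Benjamini-Hochberg adjustment, 13 of the 65 rose (20.0%, against 12.7% of everything tested) and 5 fell (7.69%, against 7.72%). The median log2 change of the 65 was 0.01, beside -0.03 over everything tested. Leaving out 1 CTRL array lowered the number called from 18 to 9 (CTRL replicate 1), 10 (CTRL replicate 2), 7 (CTRL replicate 3) or 5 (CTRL replicate 4). Over everything tested the number also fell, from 4077 of 19991 to 1881, 1937, 1401 and 992 in the same order. By contrast, Acaa1a, Acot8, Ech1, Cat and Gdap1 kept their call with any 1 array left out. The other 13 called genes lost it in at least 1 of the 7 cases. Among them, Dhrs7b, Pex10, Ephx2 and Gstk1 lost it in 6. The call was lost in 5 for Tmem86a, Tmem86b, Idh1 and Dnm1l, and in 4 for Fis1. With the slide row as a block 0 of the 65 were called by limma, and 14 had an unadjusted p under 0.05. Genes were called in both directions within the ether lipid list, the list of oxidases and the fission list.

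In the list of ether lipid synthesis and turnover, 2 of 7 measured genes outside the set rose and 1 fell, with a median log2 change of -0.08. Beside the count of each list stand 12.7% called higher and 7.72% called lower over everything tested. Dhrs7b, a peroxisomal and endoplasmic reticulum reductase that acts after AGPS, rose by 0.63 (SE 0.17, adjusted p = 0.0367). It read -1.57 to -0.96 in MDD, against -2.15 to -1.75 in CTRL. The 2 genes for lysoplasmalogenases, which break down plasmalogens after loss of an acyl chain, went opposite ways. Tmem86a rose by 0.55 (SE 0.13, adjusted p = 0.0269), with 0.05 to 0.27 in MDD, against -0.62 to -0.22 in CTRL. Tmem86b fell by 0.75 on the log2 scale (SE 0.20, adjusted p = 0.0352), with -4.22 to -3.54 in MDD, against -3.35 to -2.75 in CTRL. The brightest Tmem86b probe was dim and, like that of Tmem86a, had 1 spot. With normexp the change of Tmem86b was -0.53 (SE 0.18) and not called. Averaged over kept probes, Tmem86b changed by -0.66 (SE 0.17) and Tmem86a by 0.48 (SE 0.13), and both were called. Tmem86a and Tmem86b each lost the call in 5 cases with 1 array left out. Far2 and Agmo were not measured.

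Among the 13 other measured peroxins, the proteins that build and fill peroxisomes, 2 rose and 0 fell, with a median of 0.01. At an unadjusted p under 0.05, 5 of all 16 peroxins were higher and 2 lower, where 20.5% of everything tested was higher and 18.3% lower. Pex10, a ubiquitin ligase subunit of receptor recycling, rose by 0.53 (SE 0.13, adjusted p = 0.0292). It read -1.62 to -1.24 in MDD, against -2.01 to -1.83 in CTRL.

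Of 26 measured genes of peroxisomal fatty acid oxidation and acyl-CoA handling outside the set, 5 rose and 0 fell, with a median of 0.03. At an unadjusted p under 0.05, 10 of 27 genes, with Hsd17b4 included, were higher and 3 lower, beside the same 20.5% and 18.3%. Ech1, an isomerase for unsaturated chains found in peroxisomes and mitochondria, rose 1.72-fold (log2 0.78, SE 0.13, adjusted p = 0.0112). Acot8, a thioesterase that ends chain shortening, rose 1.67-fold (log2 0.74, SE 0.12, adjusted p = 0.0109). The thiolase genes Acaa1a and Acaa1b rose by 0.75 and 0.74 (adjusted p = 0.0133 and 0.0151), but they are close copies and their probes may not separate them. Scp2, which encodes a further thiolase and a sterol carrier, rose by 0.55 (SE 0.11, adjusted p = 0.0177). Its change was 0.11 after quantile normalization and 0.09 in the authors' deposited table, and it was called in neither.

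Of 15 measured genes of oxidases, antioxidants and other matrix or membrane proteins, 3 rose and 2 fell, with a median of 0.02. The shares over everything tested were 12.7% and 7.72%. The 2 enzymes that remove peroxides moved apart: Prdx5, a peroxiredoxin also found in mitochondria and cytosol, rose 1.87-fold, with 3.90 to 4.52 in MDD, against 3.07 to 3.31 in CTRL (adjusted p = 0.0148). Its log2 change of 0.91 was 0.56 after quantile normalization, 0.53 in the authors' deposited table and 0.46, not called, with the length and signal trend removed. Cat, the catalase that is the classic matrix enzyme, was 1.67-fold lower, with -3.89 to -3.60 in MDD, against -3.10 to -2.85 in CTRL (adjusted p = 0.0113). Its log2 change of -0.74 was -0.49 both with normexp and in the authors' deposited table, and it was called in both. Idh1, which makes NADPH in peroxisomes and cytosol, fell by 0.49 on the log2 scale (SE 0.13, adjusted p = 0.0372). The epoxide hydrolase gene Ephx2 rose by 0.60 (adjusted p = 0.0373) and the glutathione transferase gene Gstk1 by 0.55 (adjusted p = 0.0414). With normexp the change of Ephx2 was 0.47 (SE 0.16) and not called.

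Of 4 fission factors that peroxisomes share with mitochondria, 1 rose and 2 fell, beside 12.7% and 7.72% of everything tested. The membrane adaptor gene Fis1 rose by 0.86 (SE 0.23, adjusted p = 0.0355), with 4.51 to 5.44 in MDD, against 3.80 to 4.10 in CTRL. Its change was 0.40 both after quantile normalization and in the authors' deposited table, and it was called in neither. The dynamin-like GTPase gene Dnm1l fell by 0.68 (SE 0.17, adjusted p = 0.0300) and Gdap1 by 0.58 (SE 0.11, adjusted p = 0.0148). Averaged over its kept probes, Gdap1 changed by -0.46 (SE 0.14) and was not called.

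**Figure D4:**
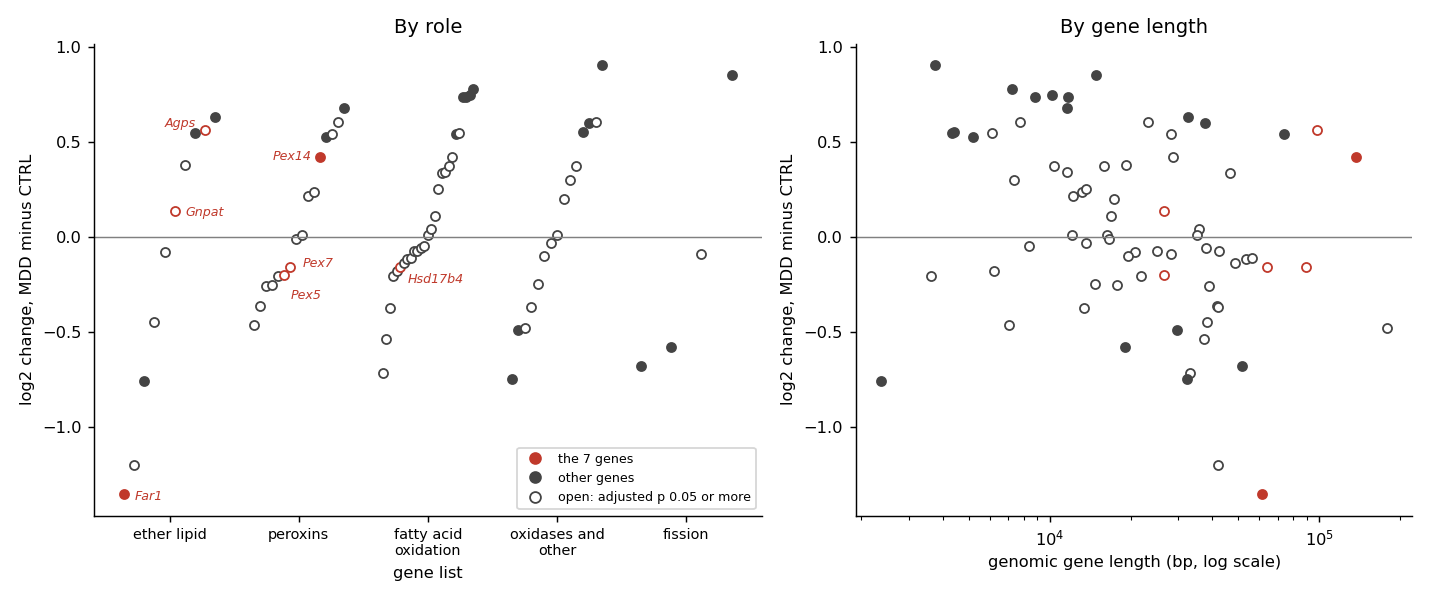
Log2 change, MDD minus CTRL, of the 72 measured ether lipid and peroxisome genes by list (left) and against genomic gene length on a log scale (right). Red points are the 7 genes of the set and grey points the others, filled where the adjusted p was under 0.05. Changes run on both sides of 0 in each list. Longer genes tend to lie lower on the right, with exceptions that include Agps (by its brightest probe only), Pex14 and Scp2.

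Gene length moved with the change, as it did over the array. Across the 72 measured genes, with the 7 included, log2 change and genomic length had a Spearman's rho of -0.36, and across the 11966 named genes one of -0.40. These genes share the same 7 arrays and are not independent replicates. The called genes of the pathway that were higher had a median length of 10908 bp and the lower ones of 30872 bp. Far1 spans 61391 bp and Pex14 136477 bp, so that Pex14 was a long gene with a higher value, as was Scp2 with 74302 bp. The change of Scp2 was only 0.11 after quantile normalization and 0.09 in the authors' deposited table. After a length and signal trend was taken out of every array, Far1 changed by -1.13 (SE 0.31, not called), Pex14 by 0.52 (SE 0.12, called) and Agps by 0.69 (SE 0.20, not called). The changes of Acot8, Ech1, Acaa1a and Acaa1b were then 0.47 to 0.52, and all 4 were called. Those of Tmem86a (0.31), Pex10 (0.35), Gstk1 (0.32) and Fis1 (0.52) were not called. Of the lower genes, Idh1 (-0.45) and Dnm1l (-0.52) were not called, while Tmem86b (-0.93), Cat (-0.61) and Gdap1 (-0.62) were.

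Summed levels of several cell type marker lists did not overlap between the groups. Over everything tested, 12.7% were called higher and 7.72% lower, and for 36.5% the groups did not overlap. Of 12 granule neuron markers 0 were higher and 4 lower, and their summed linear level was 88.4 to 99.3 in MDD, against 103 to 109 in CTRL. At an unadjusted p under 0.05, 1 granule marker was higher and 7 lower, beside 20.5% and 18.3% of everything tested. Of 13 microglial markers 8 were higher and 1 lower, with a sum of 20.6 to 25.8 in MDD, against 16.4 to 17.0 in CTRL. Of 12 oligodendrocyte and myelin markers 0 were higher and 2 lower (0 and 3 at an unadjusted p under 0.05), with a sum of 238 to 367 in MDD, against 253 to 271 in CTRL, so that here the groups overlapped. The sum of 9 astrocyte and Bergmann glia markers was 297 to 334 in MDD, against 249 to 269 in CTRL. That of 7 endothelial markers was 4.82 to 5.53 in MDD, against 3.77 to 4.53 in CTRL, and neither of these sums overlapped. By single markers, 1 of the 9 astrocyte and Bergmann glia genes was higher and 0 lower, with a median log2 change of -0.01. Of the 7 endothelial genes 1 was higher and 0 lower, with a median of 0.10. The sums overlapped for Purkinje cell, choroid plexus and meningeal markers. All markers measured in these lists were well above background on all 7 arrays. Their part in the values of Far1 and Pex14 was not tested.

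The genes whose pattern over the 7 arrays was most like that of Far1 were Ppargc1a, Wwp1, Virma, Zfp846 and Smarcad1. They were the 5 highest by Pearson's r among 11952 named genes, with r of 0.995, 0.992, 0.991, 0.991 and 0.991 and Spearman's rho of 0.857 to 1. All 5 had their lowest value in MDD replicate 1. Without MDD replicates 1 and 3, the arrays furthest from the Far1 median, r ran from 0.934 to 0.985. An r over 0.9 was found for 627 of the named genes and an r under -0.9 for 241, so such likeness was common on these arrays. Ppargc1a, a coactivator of mitochondrial biogenesis, read -3.19, -2.27 and -2.50 in MDD, against -1.84, -2.07, -1.97 and -2.13 in CTRL. Neither Ppargc1a (log2 change -0.65, SE 0.21) nor Wwp1 (-0.56, SE 0.19) was called in the main values, while Virma, Zfp846 and Smarcad1 were. Without MDD replicate 1 the change of Ppargc1a was -0.38 (SE 0.14). Virma, a scaffold of the RNA N6-adenosine methyltransferase, cleared background on 1 of the 3 MDD and on all 4 CTRL arrays. It therefore passed the filter through the group where it was higher, and its call rests on MDD values near background. With normexp, Virma changed by -0.34 (SE 0.18) and Smarcad1 by -0.52 (SE 0.17), and neither was called. In the authors' deposited table Virma changed by -0.40 (SE 0.12). Among the set itself, r with Far1 ran from -0.95 for Pex14 to 0.66 for Pex5.

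**Figure D5:**
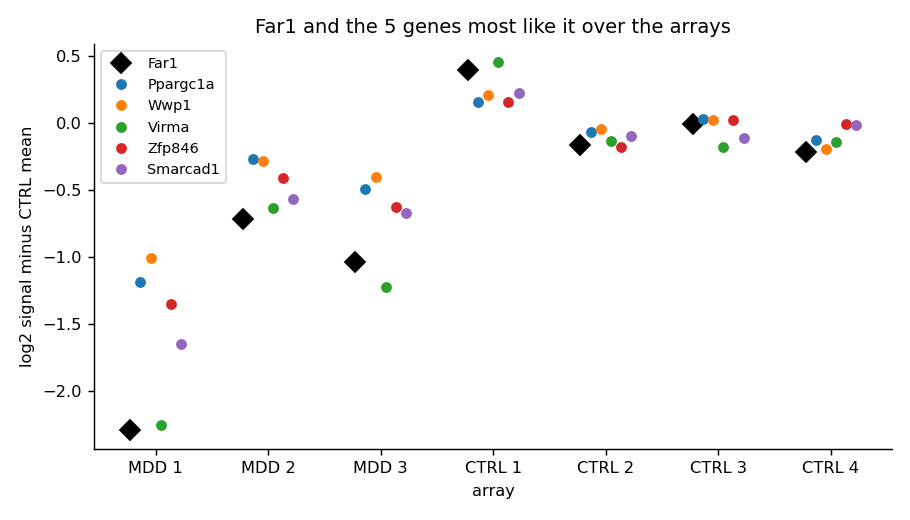
Log2 signal minus the CTRL mean for Far1 (diamonds) and the 5 genes most like it (circles), by array, with the 3 MDD arrays on the left and the 4 CTRL arrays on the right. All 6 genes are lowest in MDD replicate 1 and lie below 0 in the other MDD arrays.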

How the data were processed

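RNA from the cerebellum of 3 MDD and 4 CTRL pups was labelled with Cy3, per the labels, and read on an Agilent array (design 028279). Per the file headers, Feature Extraction 10.7.3.1 subtracted background and removed spatial trends to give the deposited linear intensities. It also gave each spot a score of 0 or 1 as a flag, per the file headers. A further deposited table holds the authors' linear intensity, normalized (how: not given in the sources used here), and its columns name a group but no replicate.

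Signals were put on the log2 scale, and the array's own 75th percentile (1140 to 2105 units) was subtracted; outlier spots were dropped and the spots of a probe averaged. An array counted for a probe if 50% or more of its spots were well above background, and 3 such arrays of 7 kept the probe (22255 of 30367). Accessions were matched to a RefSeq table of GRCr8, which named 18355 probes, and the brightest kept probe stood for a gene. The test was limma 3.58.1 (R 4.3.3) over 19991 genes and unnamed probes, with Benjamini-Hochberg adjustment and 5 residual degrees of freedom. The code was tested on simulated data.

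The 7 genes, the lists and the alternatives were chosen with earlier results of these data known. The text names all 7 genes, up to 6 called genes of each pathway list by smallest p, and the 5 genes with the highest correlation with Far1, leaving out symbols that begin with LOC or RGD. One called gene of the lists is not reported here by name. Marker lists of other cells were also read with limma. Over everything tested 12.7% were called higher and 7.72% lower, with 20.5% and 18.3% at an unadjusted p under 0.05. Of 9 astrocyte markers 1 was higher and 0 lower (3 and 0 at an unadjusted p under 0.05), and of 7 endothelial markers 1 was higher and 0 lower (1 and 0). Of 6 choroid plexus markers 0 were called (3 higher, 0 lower unadjusted), and of 6 meningeal markers 0 (1 higher, 1 lower unadjusted). Of 8 Purkinje cell markers 1 was higher and 2 lower.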

Additional observations from a re-analysis of the deposited data

Results flagged for a closer look

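Of 30 genes whose 4 CTRL arrays were examined for a single distant value, 1 was found, where chance gives about 1 in 20. It was Virma, one of the genes most like Far1, with CTRL replicate 1 at -4.85 and the nearest other CTRL array at -5.44. The gap was 0.92 of the range of the CTRL group.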

How the results depend on the processing

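The call of Far1 held under 6 of 10 alternatives other than leaving out an array, with changes of -1.42 to -0.77, and its direction under all 10. Far1 had 1 probe, above background on all arrays. Its change was therefore fixed at -1.35 with no filter, the filter on all arrays and the mean of all probes. The call of Pex14 held under 4, with changes of 0.29 to 0.52. The filter settings likewise could not move Pex14 from 0.43. Genes called over everything tested numbered 4077 (2534 higher, 1543 lower), 3182 with normexp (2307 and 875), 1593 with no filter, 1364 with the length and signal trend removed (named genes only), and 992 to 5232 with 1 array left out. Of the 7 genes, 2 were called, 3 with median scaling, normexp or the filter on all arrays, 1 with quantile normalization, the authors' deposited table, the mean of all probes or the trend removed, 0 with no filter (3 at an unadjusted p under 0.05), and 0 to 2 with 1 array left out. Of the wider genes 18 were called, 23 with median scaling or the filter on all arrays, 8 with no filter and 5 to 20 with 1 array left out. Pex7 turned to 0.0325 with the trend removed. Normexp was run on the median signal, chosen after seeing that the files hold no mean signal.

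The labels do not say that replicate numbers pair the pups. Same-numbered deviations from the group means correlated at 0.095, -0.17 and 0.22, and differently numbered ones at -0.22 to 0.15. So few values cannot decide whether the numbers are pairs. With the replicate number as a block, limma called 0 genes over everything tested, 0 of the 7 and 0 of the wider genes (6155, 3 and 29 at an unadjusted p under 0.05). The block left Far1 at -1.42 and Pex14 at 0.43. These are the values found without CTRL replicate 4, because no MDD pup has that number and the block takes up that array. CTRL replicates 1 to 3 lay in the first row of the slide and all other arrays in the second. With the row as a block, a comparison that rests on CTRL replicate 4 alone, 2 genes were called over everything tested, 0 of the 7 and 0 of the wider genes (4067, 1 and 14 unadjusted), with Far1 at -1.13 and Pex14 at 0.40. Precision is limited by the 7 arrays and, for Far1, by its low signal.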
